A study of Arabidopsis thaliana with 12 samples.

Results

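Seeds of Arabidopsis thaliana Col-0, the standard laboratory accession, were compared with the fruit that enclosed them. Siliques, the dry pods of this species, had been opened and their seeds taken out by hand, and RNA of the seeds and of what remained, called fruit here, was sequenced. The comparison took the 3 seed and the 3 fruit libraries of Col-0, out of 12 libraries in the series, and every gene listed at 1 TPM or more in at least 3 of these 6 libraries. These were 19498 of the 26925 genes in the files, and the other 7427 fell below that level. TPM, a length-corrected transcript abundance, gives the share that a gene takes of a library's transcripts after correction for their length, so a level can be compared between genes. The plants had been raised at 22 °C, and from bolting onwards were kept at 16 °C in the light and 14 °C in the dark. Siliques were taken with embryos at bent cotyledon, 14 to 15 days after petals first showed, and 3 to 5 siliques made up a library. The other 6 libraries are seed and fruit of lhp1-6, a mutant allele of the Polycomb-related gene LHP1, from the same temperatures and stage, and enter only the last comparison. No label ties the pools to separate plants, and the p-values measure the spread between these libraries, which may in part be technical.

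A seed joins maternal and filial tissue. Its coat is maternal and lays down flavonoid pigments, mucilage and suberin, while endosperm and embryo are products of fertilisation. A bent-cotyledon embryo is passing from cell division and patterning into maturation, in which it fills with storage protein and oil before it dries. The transcription factors LEC1, LEC2, FUS3 and ABI3 drive that programme, and the last 3 of them carry a B3 domain that recognises the RY element CATGCA. The fruit around it is maternal throughout: green valves that photosynthesise, a valve margin whose lignified cells later open the pod, and veins from which sugar, amino acids and hormones pass to the seed. Abscisic acid (ABA) promotes dormancy, and gibberellin promotes germination.

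Seed and fruit libraries separated on the first principal component of log2(TPM + 1), which held 95.2% of the variance, with the seed libraries at 116 to 120. Fruit replicate 1 lay at -79.9, nearer to seed than fruit replicates 2 and 3 at -141 and -133. The 1st percentile of the fruit-to-seed ratio over genes at 50 TPM or more in every seed library, taken as an upper estimate of the seed RNA in a fruit library, was 23.4% there against 3.69% and 5.77% in the other fruit libraries. The mirror estimate of fruit RNA in the seed libraries was 0.0476% to 0.0560%. Of the 1630 genes called higher in seed by at least 2 log2 units, 1622 had a larger difference without it, and for 314 the difference moved by more than 1.5-fold. Whether seed tissue entered that sample was not tested. Where leaving out a library moved a called difference by more than 1.5-fold or changed a call, the value without it follows in brackets. Listed TPM summed to 979426 to 983562 per library, with 18484 to 19086 genes at 1 TPM or more in fruit and 17981 to 18147 in seed. In these bulk samples, fewer cells of a type and less RNA per cell cannot be told apart.

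The tissue labels were checked against markers. FUL, which patterns the valves, stood at 186, 252 and 296 TPM in fruit and 0.169, 0 and 0 TPM in seed. IND, the valve margin factor, stood at 16.2, 17.9 and 25.4 TPM in fruit and 0.108, 0 and 0.0717 TPM in seed. The fibre factor NST1 stood at 55.0, 74.5 and 65.6 TPM in fruit and 0.0398, 0 and 0 TPM in seed, a difference of -6.02. Each was near 0 in every seed library and present in every fruit library. In the other direction, EPR1, an endosperm cell wall protein, stood at 249, 16.5 and 37.6 TPM in fruit and 1415, 874 and 834 TPM in seed. The groups did not overlap, and fruit replicate 1 was the highest fruit library. EPR1 had 1 of the largest differences in favour of seed and does not stand for its list. Of 19 endosperm genes listed, 10 could be tested, with 6 higher in seed and 3 lower, where 44.8% and 36.9% of all genes tested were. Storage and oil body proteins, the markers of seed identity, were higher in seed for 9 of 10 and 8 of 8 tested. Pollen markers were higher in fruit, where VGD1, a pollen tube pectin methylesterase, stood at 114, 137 and 114 TPM in fruit and 9.51, 5.99 and 21.5 TPM in seed, a difference of -3.37.

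**Figure D1:**
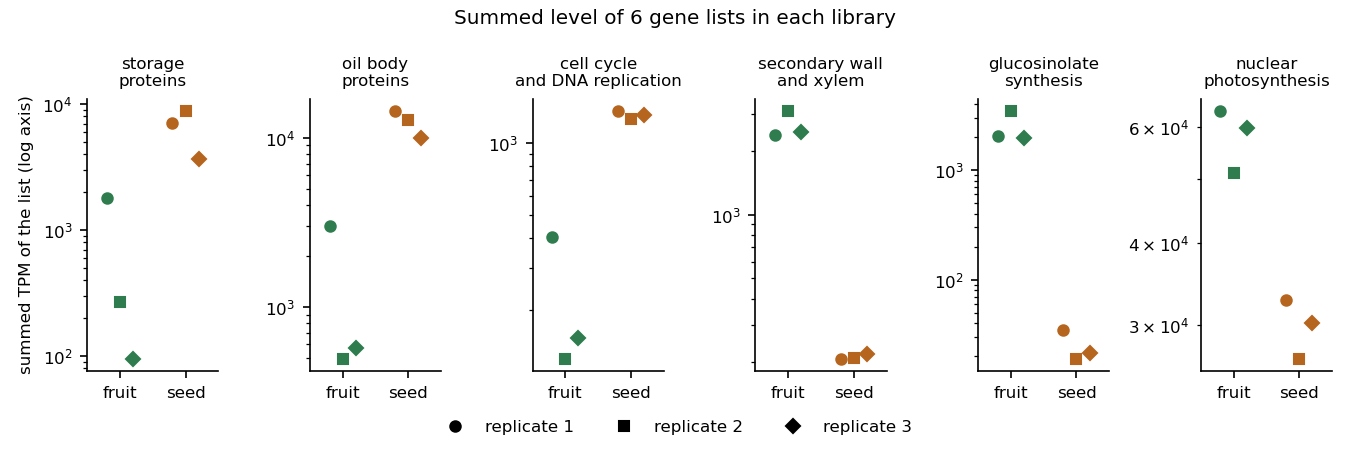
Summed TPM (log axis) of 6 gene lists in each fruit and seed library of Col-0, with a symbol for each replicate. Storage proteins, oil body proteins and cell cycle genes are higher in every seed library, with fruit replicate 1 the highest fruit library (1789 TPM of storage proteins against 270.1 and 95.6), while secondary wall, glucosinolate and photosynthesis genes are higher in every fruit library.

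Most expressed genes differed between the tissues. A limma test on log2(TPM + 1) with Benjamini-Hochberg adjustment over all genes tested called 8738 genes higher in seed (44.8%) and 7187 lower in seed (36.9%) at an adjusted p under 0.05. Differences below are seed minus fruit in log2(TPM + 1), with their standard error, and understate the change of genes near 0. Differences of at least 2 units, a change of 4-fold or more, were called for 1630 genes higher in seed (8.36%) and 2229 lower in seed (11.4%). The counts called in each gene list below are to be read beside these shares of all genes tested. Every seed library lay above every fruit library for 47.4% of genes tested, and below for 39.0%. The directions were not alike in size. No difference in favour of seed exceeded 4.21, and 4 genes reached 4 units, whereas 607 genes were lower in seed by 4 units or more, down to -9.76. That asymmetry shrank without fruit replicate 1, to 92 against 676 genes. Subtraction of an estimated seed share from each fruit library gave 436 against 669. By construction, that step lowers the fruit level of genes higher in seed, and the share is an upper estimate. A shift in this direction was therefore built in and tells nothing about the asymmetry. At least 1 TPM in every seed library and in no fruit library was met by 486 genes, or 1032 where fruit replicate 1 was allowed to list the gene too, and the reverse by 1410. Rescaling the libraries by median of ratios moved the median of all genes from 0.12 to -0.030 and the split to 7724 higher and 8115 lower.

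**Figure D2:**
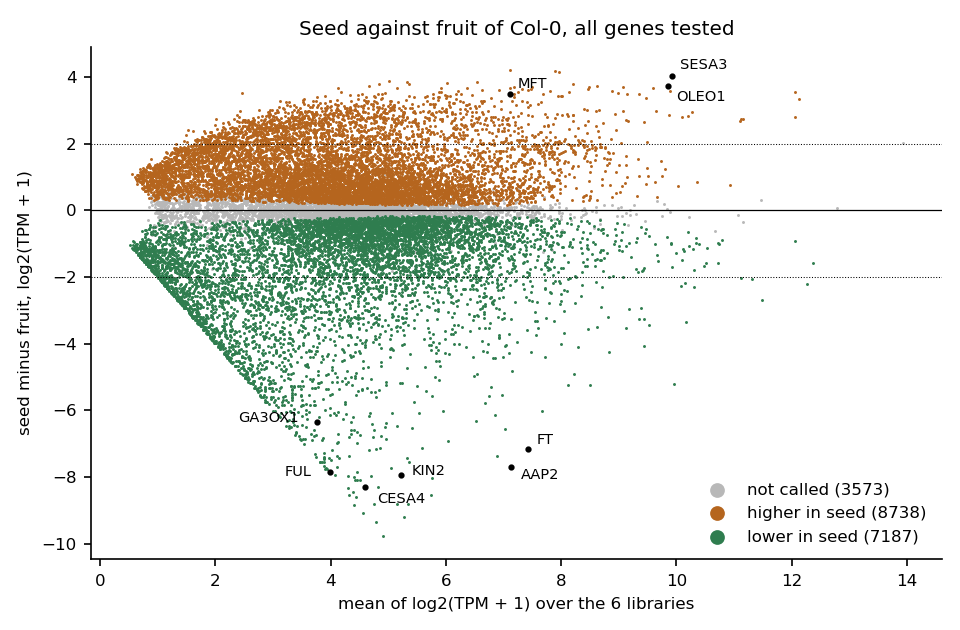
Seed minus fruit difference in log2(TPM + 1) of the 19498 genes tested, against their mean log2(TPM + 1) over the 6 Col-0 libraries. Orange points are called higher in seed (8738), green points lower (7187) and grey points not called (3573), dotted lines mark 2 log2 units, and the differences in favour of fruit reach further from 0 than those in favour of seed.

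The 15 genes with the largest differences in favour of seed, among called genes with no overlap between groups and at least 10 TPM in seed, were mostly storage, oil body and lipid transfer proteins. They were SESA2, EPR1, SESA4, SESA3, CRU2, PAP85, ATS3, LTP2, AT1G54860, CLO1, AT3G63040, PER1, AT1G47540, OLEO1 and AT1G62500. ATS3, annotated as an embryo-specific protein, stood at 75.1, 16.5 and 9.92 TPM in fruit and 417, 422 and 249.99 TPM in seed, a difference of 3.86 ± 0.71 (4.68 without fruit replicate 1). LTP2, a lipid transfer protein, stood at 65.0, 12.9 and 4.63 TPM in fruit and 278, 312 and 164 TPM in seed, a difference of 3.82 ± 0.86 (4.78 without fruit replicate 1 and 3.01 without fruit replicate 3). Both had every seed library above every fruit library. The 15 in favour of fruit were AT1G23130, CTL2, GLN1;4, AT1G22480, AT2G47880, AT1G62510, AT1G64370, PIFI, AT3G28270, MAP70-5, AT2G45220, AT1G67865, AT3G62550, LAC4 and CESA4. AT1G23130, annotated as a polyketide cyclase and lipid transport protein, stood at 702, 935 and 1058 TPM in fruit and 0.0652, 0 and 0 TPM in seed, a difference of -9.76. CTL2, a chitinase-like protein of secondary walls, stood at 596, 819 and 702 TPM in fruit and 0.103, 0.0338 and 0.102 TPM in seed, a difference of -9.34 ± 0.13. GLN1;4, a cytosolic glutamine synthetase, stood at 711, 1124 and 1032 TPM in fruit and 0.686, 0.777 and 0.359 TPM in seed, a difference of -9.20 ± 0.20. All 3 lay near 0 in seed, and AT2G47880, a glutaredoxin at 351, 443 and 599 TPM in fruit, was listed at 0 in all 3 seed libraries.

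Storage proteins, the nitrogen reserve of the seed, took 0.719%, 0.893% and 0.376% of the listed TPM in the seed libraries. They were higher in seed for 9 of 10 members tested, 8 of them by at least 2 units, where 44.8% and 8.36% of all genes tested were. Their summed level was 1789, 270.1 and 95.6 TPM in the fruit libraries and 7073, 8782 and 3702 TPM in the seed libraries. Every seed library lay above every fruit library, fruit replicate 1 was the highest of the fruit libraries, and seed replicate 3 the lowest of the seed libraries. The 2S albumin SESA3 stood at 1142, 181 and 63.7 TPM in fruit and 4689.6, 5338 and 2406 TPM in seed, a difference of 4.04 ± 1.02 log2 units, adjusted p = 0.00961 (5.18 without fruit replicate 1 and 3.10 without fruit replicate 3). Its neighbours SESA2 and SESA4 differed by 4.21 ± 1.12 (5.43 without fruit replicate 1 and 3.15 without fruit replicate 3) and 4.16 ± 1.03 (5.31 without fruit replicate 1 and 3.23 without fruit replicate 3). The 12S globulins were lower in level. CRU1 stood at 88.3, 7.68 and 5.16 TPM in fruit and 187, 405 and 129 TPM in seed, a difference of 3.68 (4.88 without fruit replicate 1 and 2.95 to 3.22 and not called without any 1 of fruit replicate 2, fruit replicate 3 and seed replicate 2). CRU2 stood at 43.1, 6.33 and 0.868 TPM in fruit and 124, 241 and 61.7 TPM in seed, a difference of 3.87 (5.06 without fruit replicate 1, 2.78 without fruit replicate 3 and 3.39 to 3.86 and not called without any 1 of fruit replicate 2, seed replicate 1 and seed replicate 2). Seed replicate 2 was the highest seed library for both, and neither overlapped fruit. CRU3 did not pass (adjusted p = 0.0523), with 6.89, 48.9 and 2.69 TPM in seed, 2.88, 0.571 and 0.415 TPM in fruit and a difference of 2.47 ± 0.97 (2.93 and called without fruit replicate 1 and 3.27 and called without seed replicate 3). The 2S albumins SESA1 and SESA5 and the cupin AT1G03890 were higher by 3.27 (4.22 without fruit replicate 1), 2.6 and 1.24, from lower levels. The list's median was 3.77, and 4.82 without fruit replicate 1, against 0.12 for all genes tested, and 7 to 10 of its members were called when 1 library was left out. Since the 2S albumins lie in tandem and are similar, the counting may have split reads between them.

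Oil body proteins coat the droplets in which the seed keeps its oil, and all 8 tested were higher in seed by at least 2 units, with a median of 3.67, and 4.53 without fruit replicate 1. They summed to 3022, 495 and 573 TPM in the fruit libraries and 14296, 12696 and 9883 TPM in the seed libraries. Groups did not overlap, and fruit replicate 1 again stood between the other fruit libraries and seed. Oleosins made up most of it: OLEO1 stood at 843, 139 and 138 TPM in fruit and 4024, 3568 and 2650.4 TPM in seed, a difference of 3.73 ± 0.72 log2 units, adjusted p = 0.00300 (4.59 without fruit replicate 1). OLEO2 and OLEO3 differed by 3.70 ± 0.70 (4.54 without fruit replicate 1) and 3.59 ± 0.64 (4.35 without fruit replicate 1), and OLEO4 and the oleosin AT3G01570 by 3.66 ± 0.72 (4.53 without fruit replicate 1) and 3.68 ± 0.71 (4.53 without fruit replicate 1). The caleosin CLO1 stood at 37.8, 7.10 and 3.31 TPM in fruit and 192, 204 and 91.2 TPM in seed, a difference of 3.80 ± 0.81 (4.70 without fruit replicate 1 and 3.12 without fruit replicate 3). HSD1, a steroleosin, was the least abundant at 2.2, 0.351 and 0.0964 TPM in fruit and 5.90, 12 and 6.04 TPM in seed, a difference of 2.35. ATPXG2, another caleosin, stood at 5.10, 1.7 and 0.226 TPM in fruit and 22, 29.0 and 12.5 TPM in seed, a difference of 2.95.

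The 250 bases before the annotated start of 2 albumin genes and 1 oleosin gene follow. They are the genes with the largest called differences of their lists whose windows overlap no other annotated gene. Each is written 5′ to 3′ on the strand of the gene from the RefSeq TAIR10.1 sequence, with the RY core CATGCA, on either strand, in capitals.
SESA2, chr4:13609091-13609340, plus strand: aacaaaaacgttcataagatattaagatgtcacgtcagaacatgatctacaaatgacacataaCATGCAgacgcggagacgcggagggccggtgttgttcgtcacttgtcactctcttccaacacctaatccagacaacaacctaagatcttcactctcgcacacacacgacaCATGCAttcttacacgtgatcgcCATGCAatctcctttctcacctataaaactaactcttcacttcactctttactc
SESA4, chr4:13613346-13613595, plus strand: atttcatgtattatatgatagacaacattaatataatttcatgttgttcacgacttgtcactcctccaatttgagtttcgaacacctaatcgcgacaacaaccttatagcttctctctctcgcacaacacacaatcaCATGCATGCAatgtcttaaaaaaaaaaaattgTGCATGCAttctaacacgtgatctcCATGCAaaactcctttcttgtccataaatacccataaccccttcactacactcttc
OLEO1, chr4:12900180-12900429, plus strand: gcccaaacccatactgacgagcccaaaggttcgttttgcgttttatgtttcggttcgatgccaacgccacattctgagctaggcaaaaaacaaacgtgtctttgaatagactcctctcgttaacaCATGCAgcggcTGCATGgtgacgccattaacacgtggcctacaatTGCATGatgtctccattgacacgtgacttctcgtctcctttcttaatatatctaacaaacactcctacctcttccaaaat
SESA2 held 3 matches, SESA4 6 matches that partly overlap and OLEO1 3, the nearest to the start at 54, 56 and 80 bases before it.

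Over the same window, CATGCA on either strand occurred upstream of 9 of 10 storage protein genes and 8 of 8 oil body genes. Its share was 7.79% over 19366 windows of genes tested, 14.6% of the 1624 windows of genes higher in seed by at least 2 units, 9.29% of the 2228 windows of genes lower by at least 2 units and 6.75% where no difference was called. The longer form CATGCATG, which contains CATGCA, was in 2.22% of windows of the large seed genes and 0.682% of all. Of 2 further lists mostly higher in seed, CATGCA was upstream of 5 of 24 seed oil genes (20.8%) and 2 of 32 cell cycle genes (6.25%). ACGTG, the core of ABA-responsive elements, was in 25.2% of windows of the large seed genes, 26.3% of those of the large fruit genes and 23.6% of all, and CACGTG, which contains it, in 8.37%, 7.09% and 7.63%. In the storage protein list ACGTG was upstream of 6 of 10 genes (60.0%) and CACGTG of 5, and in the oil body list of 5 of 8 (62.5%) and 2. A match describes letters in a window and does not show that a factor binds there.

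Most maturation regulators were higher in seed too, with 13 of 19 called higher in seed, 11 of them by at least 2 units, 4 lower and a median of 2.83, and 3.15 without fruit replicate 1. LEC1, an NF-YB subunit needed for embryo maturation, stood at 40.5, 9.98 and 15.6 TPM in fruit and 138, 140.1 and 166 TPM in seed. Its close relative NF-YB6 (L1L) stood at 177, 28.6 and 43.0 TPM in fruit and 765, 658 and 639 TPM in seed. Neither overlapped between tissues, and they differed by 2.92 ± 0.46 and 3.48 ± 0.64 (4.25 without fruit replicate 1). The B3 factor FUS3 stood at 49.1, 9.95 and 15.9 TPM in fruit and 205, 172 and 155 TPM in seed, a difference of 3.07 ± 0.53 log2 units, adjusted p = 0.00191 (3.70 without fruit replicate 1). ABI3, another B3 factor, stood at 31.2, 6.45 and 8.02 TPM in fruit and 128, 105 and 104 TPM in seed, a difference of 3.12 ± 0.54 log2 units, adjusted p = 0.00187 (3.78 without fruit replicate 1). LEC2, the other B3 factor of this set, was scarcer at 4.15, 0.917 and 1.7 TPM in fruit and 12.3, 12.6 and 14.9 TPM in seed, a difference of 2.25. For all 3, fruit replicate 1 was the highest fruit library and remained below seed. The MADS factor AGL15, the bZIP factors bZIP67 and EEL, the AP2 factor BBM and ABI4 were also higher in seed, by 2.99 (3.58 without fruit replicate 1), 3.29 (4.05 without fruit replicate 1), 2.96, 2.84 and 2.83. Endosperm regulators MYB118 and MYB115 were higher by 3.0 (3.68 without fruit replicate 1) and 1.72. The VAL repressors, which shut the maturation genes off after germination, did not move together. VAL1 was higher in seed and stood at 28.7, 16.2 and 18.0 TPM in fruit and 76.8, 75.7 and 73.3 TPM in seed, a difference of 1.84. VAL2 was lower and stood at 43.6, 63.7 and 53.1 TPM in fruit and 17.9, 18.3 and 17.6 TPM in seed, a difference of -1.51. VAL3 was lower at -0.50 (-0.44 and not called without seed replicate 3). Not every partner of ABI3 was seed-rich. ABI5, the bZIP factor of late maturation, stood at 15.9, 19.1 and 29.0 TPM in fruit and 13.7, 12.6 and 10.9 TPM in seed and was called lower in seed at -0.70 (-0.71 and not called without seed replicate 2, -0.61 and not called without seed replicate 3 and adjusted p = 0.0504 with the replicate block). bZIP25, another bZIP partner, was lower at -0.86, and bZIP53 and bZIP10 were not called at 0.21 (0.38 and called without seed replicate 1) and -0.0040. No library overlapped for ABI5, although its difference was small.

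Seed oil synthesis was higher in seed for 20 of 24 members, 11 by at least 2 units, and lower for 3. WRI1, the AP2 factor that switches glycolysis and fatty acid genes on, stood at 99.8, 20.7 and 23.5 TPM in fruit and 365, 291 and 254 TPM in seed, a difference of 3.0 ± 0.59 (3.71 without fruit replicate 1). FAE1, which elongates fatty acids to the very long chains of seed oil, stood at 95.2, 12.6 and 16.6 TPM in fruit and 435, 343 and 273 TPM in seed, a difference of 3.60 ± 0.73 (4.48 without fruit replicate 1). Both separated the tissues in all libraries. Of genes of plastid fatty acid synthesis on the list, BCCP2, KAS1, MOD1 and CAC2, with the pyruvate kinase PKP-BETA1, were higher by 3.24 (3.90 without fruit replicate 1), 2.87, 2.90 (3.49 without fruit replicate 1), 2.45 and 2.48. The desaturase FAD3 and the headgroup exchanger ROD1 were higher by 2.24 and 2.52, and DGAT1, which adds the third acyl chain, by 1.2. PDAT1, which does so by another route, was lower at 41.2, 43.9 and 43.1 TPM in fruit and 10.6, 10.8 and 10.9 TPM in seed, a difference of -1.89 ± 0.0688 log2 units, adjusted p = 4.67e-06. The plastid thioesterases FATA and FATB went opposite ways. FATA made up 11.8% ± 9.41 (6.43% without fruit replicate 1) of the summed FATA and FATB TPM in fruit and 73.0% ± 2.35 in seed (mean ± SD, n = 3), at sums of 260.1 and 297 TPM. SUS2 and SUS3, both sucrose synthases on the list, went opposite ways, by 3.56 (4.42 without fruit replicate 1) and -2.56.

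Cell cycle and DNA replication genes mark dividing tissue, and 32 of 32 members were higher in seed, 27 by at least 2 units, with a median of 2.5, and 2.99 without fruit replicate 1. They summed to 406, 126 and 154 TPM in the fruit libraries and 1354, 1263 and 1304 TPM in the seed libraries. The syntaxin KN, which builds the cell plate, stood at 78.9, 15.4 and 25.5 TPM in fruit and 312, 292 and 301 TPM in seed, a difference of 3.21 ± 0.55 (3.86 without fruit replicate 1). The replication clamp PCNA1 stood at 14.5, 3.47 and 3.96 TPM in fruit and 54.8, 50.5 and 54.7 TPM in seed, a difference of 2.95. The mitotic kinase CDKB2;1 stood at 19.6, 5.39 and 6.99 TPM in fruit and 71.0, 65.0 and 70.8 TPM in seed, a difference of 2.78. In each, the seed libraries lay within a narrow range and fruit replicate 1 was the highest fruit library. Cyclin CYCB1;2, the kinesin HIK and the replicative helicase subunits MCM2 and MCM7 differed by 2.88, 2.79, 2.64 and 2.69, and E2FC, a repressor of the cycle, by 0.60.

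Embryo patterning genes were higher in seed for 14 of 19 tested and lower for 4, and 4 more of the 23 were below the level tested. WOX9, WOX8 and SHR, which set up the embryo and root axes, differed by 2.56, 1.63 and 2.41. The epidermal factors ATML1 and PDF2 were seed-rich. ATML1 stood at 23.8, 14 and 10.9 TPM in fruit and 59.8, 60.0 and 60.5 TPM in seed, a difference of 1.9. PDF2 stood at 44.6, 26.0 and 21.9 TPM in fruit and 112, 109.9 and 101 TPM in seed, a difference of 1.83. The shoot meristem factor STM went the other way, at 34.4, 49.1 and 38.1 TPM in fruit and 4.23, 3.33 and 4.26 TPM in seed, a difference of -3.06 ± 0.16 log2 units, adjusted p = 1.73e-05. The auxin carriers PIN7 and PIN4 were lower, at -0.96 and -0.62. The root factor PLT1 and the GATA factor HAN were higher by 2.19 and 2.12, and YDA, the kinase of the first zygote division, was lower at -0.64. Neither STM nor ATML1 overlapped between tissues.

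Endosperm genes were listed at 1 TPM in enough libraries for 10 of 19, of which 6 were higher in seed and 3 lower. EPR1 differed by 4.19 ± 0.93 log2 units, adjusted p = 0.00561 (5.28 without fruit replicate 1 and 3.36 without fruit replicate 2). ZOU, the factor by which the endosperm breaks down as the embryo grows, stood at 13.8, 3.38 and 4.94 TPM in fruit and 42.3, 36.3 and 38.2 TPM in seed, a difference of 2.45. ALE1, a protease that matures the embryo surface signal, stood at 30.6, 8.36 and 9.51 TPM in fruit and 65.0, 64.1 and 81.1 TPM in seed, a difference of 2.27. The signal precursor TWS1 (AT5G01075) is an embryo gene counted on this list. It was at 47.2, 10.4 and 12.7 TPM in fruit and 255, 190.1 and 199 TPM in seed, a difference of 3.44 ± 0.54 (4.09 without fruit replicate 1). Its embryo receptors GSO1 and GSO2 were higher by 2.69 and 2.94 (3.55 without fruit replicate 1). KRS (AT1G50650), an endosperm peptide that shapes the embryo sheath, was higher by 2.36, and FIS2 by 0.93. Factors of the early, syncytial endosperm were not seed-rich. AGL62, the MADS factor that holds off cellularisation, stood at 1.78, 2.33 and 3.29 TPM in fruit and 0.997, 0.720 and 0.969 TPM in seed and was lower at -0.85. IKU1, which acts in the same growth pathway as IKU2, was lower at -0.52, and AGL80 was not called at 0.010. IKU2, a receptor kinase of endosperm growth, was at 2.04, 2.06 and 2.11 TPM in fruit and listed at 0 in all 3 seed libraries. AGL62 was below 1 TPM in every seed library.

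Chromatin genes were mostly higher in seed, 20 of 22 in DNA methylation and silencing and 21 of 24 in the Polycomb list. The maintenance methyltransferase MET1 stood at 6.58, 2.77 and 2.18 TPM in fruit and 18.9, 20.9 and 19.8 TPM in seed, a difference of 2.21. The chromomethylase CMT2 stood at 15, 6.87 and 7.85 TPM in fruit and 42.8, 46.7 and 45.4 TPM in seed, a difference of 2.15. VIM1, a partner of MET1, stood at 14.7, 4.04 and 4.78 TPM in fruit and 53.3, 52.5 and 56.8 TPM in seed, a difference of 2.84. Each was higher in every seed library. AGO4, the effector of RNA-directed DNA methylation, stood at 72.3, 25.1 and 26.0 TPM in fruit and 263, 219 and 219.7 TPM in seed, a difference of 2.65 ± 0.40. DML3, a DNA demethylase, was the exception at 4.3, 6.03 and 6.14 TPM in fruit and 0.0816, 0.0404 and 0.0815 TPM in seed, a difference of -2.59 ± 0.15 log2 units, adjusted p = 2.40e-05. DDM1, a nucleosome remodeller, and AGO5, an Argonaute of the germ line, were higher by 2.42 and 2.39. Polycomb genes moved less, with a list median of 0.93, and 1.02 without fruit replicate 1. FIE and MSI1, shared subunits of the repressive complex, were higher by 1.55 and 1.09, CLF by 0.92, and SWN, the alternative methyltransferase, was lower at -0.42. LHP1, which reads the Polycomb mark, stood at 15.3, 17.5 and 18.0 TPM in fruit and 20.8, 23.7 and 21.3 TPM in seed, a difference of 0.36 ± 0.10 log2 units, adjusted p = 0.0131 (0.30 and not called without seed replicate 2). ULT1, an antagonist of Polycomb in the flower, was far higher in seed at 23.2, 5.98 and 8.35 TPM in fruit and 85.2, 94.8 and 96.7 TPM in seed, a difference of 3.0. VIN3, which acts in vernalization, and the jumonji protein AT5G46910 were higher by 1.74 and 1.51.

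Seed coat pigment genes were higher in seed for 17 of 19, 14 by at least 2 units, with a median of 2.65, and 3.18 without fruit replicate 1. CHS, the first enzyme of flavonoid synthesis, stood at 325, 83.1 and 95.9 TPM in fruit and 1022, 1077 and 1187 TPM in seed, a difference of 2.98 (3.60 without fruit replicate 1). BAN, which commits the pathway to the proanthocyanidins of the coat, stood at 250.2, 25 and 63.5 TPM in fruit and 761, 772 and 922 TPM in seed, a difference of 3.45 ± 0.77 log2 units, adjusted p = 0.00564 (4.32 without fruit replicate 1 and 2.68 without fruit replicate 2). TT10, the laccase that browns them, stood at 297, 66.9 and 90.3 TPM in fruit and 999, 992 and 1001 TPM in seed, a difference of 3.02 (3.66 without fruit replicate 1). All 3 had every seed library above every fruit library, with fruit replicate 1 the nearest. DFR, LDOX, F3'H and the transport protein TT19 were higher by 3.29 (4.02 without fruit replicate 1), 3.16 (3.88 without fruit replicate 1), 2.97 (3.66 without fruit replicate 1) and 3.04 (3.68 without fruit replicate 1). The coat regulators TT8, TT16, TT1 and TT2 were higher by 2.94 (3.61 without fruit replicate 1), 2.52, 2.31 and 2.04, whereas TTG1, the WD40 protein that works with them in many tissues, was lower at -0.63 and the sterol glucosyltransferase TT15 at -0.83.

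Mucilage genes were more mixed, with 12 of 22 higher in seed, 6 lower and 4 not called. The epidermal regulators MYB61, GL2 and MYB5 were higher by 2.91 (3.56 without fruit replicate 1), 2.72 (3.35 without fruit replicate 1) and 2.58, PER36, a peroxidase that loosens the cell wall for mucilage release, by 2.93, and GATL5 by 2.74 (3.39 without fruit replicate 1). MUM4, the rhamnose synthase for the mucilage polymer, stood at 134, 71.8 and 70.2 TPM in fruit and 241, 309 and 315 TPM in seed, a difference of 1.7. NARS1 and NAM (NARS2), NAC factors of seed coat development, were lower in seed. NARS1 stood at 510.1, 601 and 428 TPM in fruit and 197, 214 and 221 TPM in seed, a difference of -1.27. NAM stood at 191, 227 and 220.5 TPM in fruit and 94.0, 99.8 and 93.2 TPM in seed, a difference of -1.14. Seed and fruit did not overlap for MUM4, NARS1 or NAM. AP2, which limits seed size from the coat, and the xylan synthase IRX14 were lower, at -0.71 and -0.64. Suberin genes were below the level tested for 8 of 13, and of the other 5 CYP86B1 and ASFT were higher by 2.68 and 1.57, MYB107 by 1.42, and the elongases KCS2 and KCS20 lower at -3.17 and -1.05. Cutin and wax were fruit-rich for 9 of 13. CER1, which makes the alkanes of cuticular wax, stood at 122, 189 and 160.0 TPM in fruit and 0.383, 0.319 and 0.413 TPM in seed, a difference of -6.82. CER3, its partner, stood at 723, 1072 and 831 TPM in fruit and 19.1, 17.3 and 16.2 TPM in seed, a difference of -5.55. WSD1, the wax ester synthase, stood at 27.6, 52.0 and 34.2 TPM in fruit and 0.107, 0.0265 and 0 TPM in seed, a difference of -5.17. In each, the seed libraries were far below fruit. DCR, an acyltransferase for cutin, was higher in seed by 2.40, as was the lipid transfer protein LTPG1 by 2.09. The cutin hydroxylase CYP86A4 and the acyl-CoA synthetase LACS2 were higher by 1.68 and 0.93. The elongases CER6 and KCS1 and the wax exporter CER5 were lower, at -2.18, -2.90 and -1.85. The cutin enzymes GPAT6 and CYP77A6 were lower, at -2.71 and -1.17, and the alkane hydroxylase MAH1 was at 3.13, 4.36 and 1.22 TPM in fruit and listed at 0 in seed.

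Late embryogenesis proteins protect the drying seed. Of 11 genes listed, 6 were below the level tested, among them EM1 at 0, 0.0590 and 0 TPM and EM6 at 0.0765, 0 and 0 TPM in seed. PER1, a peroxiredoxin of dormant embryos, stood at 24.2, 3.02 and 2.26 TPM in fruit and 118, 115 and 57.0 TPM in seed, a difference of 3.75 (4.68 without fruit replicate 1). ECP63 stood at 4.70, 0.851 and 0.877 TPM in fruit and 16.7, 17.1 and 16.8 TPM in seed, a difference of 2.72. The dehydration proteins that are also made in stressed leaves went the other way. RAB18 stood at 144, 144 and 207 TPM in fruit and 0.455, 1.1 and 2.12 TPM in seed, a difference of -6.27 ± 0.30 log2 units, adjusted p = 1.23e-05. LEA4-5 stood at 62.7, 32.6 and 66.9 TPM in fruit and 12.1, 9.18 and 4.93 TPM in seed, a difference of -2.51. RAB18 was above 100 TPM in every fruit library and under 3 TPM in every seed library. The dehydrin XERO1 was higher in seed by 0.79.

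Dormancy genes were higher in seed for 6 of 9 tested and lower for 1. DOG1, the main quantitative regulator of dormancy, was below the level tested at 0.373, 0.0696 and 0.215 TPM in fruit and 1.18, 1.42 and 0.983 TPM in seed. Its relative DOGL4 (AT4G18650) stood at 3.28, 0.153 and 0.283 TPM in fruit and 15.7, 12.6 and 5.92 TPM in seed, a difference of 2.65 (3.25 without fruit replicate 1). RDO5 stood at 6.34, 0.930 and 1.42 TPM in fruit and 23.7, 18.2 and 14.4 TPM in seed, a difference of 2.58 (3.17 without fruit replicate 1). MFT, a PEBP protein that responds to ABA and gibberellin in seeds, stood at 132, 16.6 and 28.7 TPM in fruit and 572, 463 and 371 TPM in seed, a difference of 3.49 ± 0.72 log2 units, adjusted p = 0.00392 (4.34 without fruit replicate 1 and 2.88 without fruit replicate 2). CHO1, an AP2 factor that upholds ABA signalling, was higher by 3.12 (3.77 without fruit replicate 1), and the DELLA protein RGL2 and SPT by 0.90 and 0.69. AHG3, a phosphatase that both binds DOG1 and blocks ABA signalling, was lower in seed at 349.8, 494 and 586 TPM in fruit and 149, 142 and 127 TPM in seed, a difference of -1.74. HUB1 and PIF1 were not called, at -0.074 and -0.15.

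ABA synthesis genes were higher in seed for 3 of 8 tested and lower for 5, and members of 1 enzyme family went opposite ways. The carotenoid cleavage step is rate-limiting, and NCED3, its drought-induced enzyme, stood at 22.1, 119 and 84.9 TPM in fruit and 1.78, 1.26 and 1.25 TPM in seed, a difference of -4.68 ± 0.59 log2 units, adjusted p = 0.000557 (-5.40 without fruit replicate 1). NCED6 stood at 15.5, 5.29 and 5.15 TPM in fruit and 57.9, 51.4 and 51.5 TPM in seed, a difference of 2.66. NCED9 stood at 15.4, 4.84 and 4.23 TPM in fruit and 54.4, 52.8 and 41.9 TPM in seed, a difference of 2.67. Fruit replicate 1 was the lowest fruit library for NCED3 and the highest for the other pair. The sum of the 3 was alike in level, 92.3 ± 38.3 TPM in fruit and 105 ± 9.72 TPM in seed (SD, n = 3), but NCED3 gave 74.7% ± 28.5 of it in fruit and 1.36% ± 0.185 in seed. Upstream, ABA1, which epoxidises zeaxanthin, stood at 493, 562 and 560.0 TPM in fruit and 33.4, 30.5 and 30.8 TPM in seed, a difference of -4.05 ± 0.0838 log2 units, adjusted p = 1.52e-06. ABA4 and AAO3, the last enzyme, were lower in seed at -0.99 and -1.35, ABA3 at -0.49, and ABA2 was higher by 0.49. No gene of ABA catabolism and conjugation was higher in seed, and 4 of 7 were lower. CYP707A2, the hydroxylase of imbibed seeds, stood at 18.9, 20.6 and 18.0 TPM in fruit and 0.426, 0.398 and 0.212 TPM in seed, a difference of -3.91. CYP707A4 was at 4.81, 5.39 and 6.74 TPM in fruit and listed at 0 in seed, and the glucosyltransferases UGT71B6 and UGT71C5 were lower, at -2.17 and -1.15. CYP707A1, CYP707A3 and BGLU18 were not called, at 0.36, 0.19 and 0.48 (0.61 and called without fruit replicate 1).

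Of 11 ABA transport genes tested, 5 were higher in seed and 4 lower. Those shares were near the 44.8% and 36.9% of all genes tested. The NPF importers NPF4.1, NPF4.2 and NPF4.5 were higher by 2.57, 2.65 and 2.55, and NPF4.1 stood at 64.9, 19.3 and 18.7 TPM in fruit and 187, 167 and 175 TPM in seed. NPF4.6 (AIT1) was lower at 80.8, 105 and 77.3 TPM in fruit and 23.7, 22 and 21.1 TPM in seed, a difference of -1.92. ABCG31, an exporter of the endosperm, and ABCG22 were higher by 0.63 and 0.90. The carriers AT2G40460 and DTX50 were lower, at -1.18 and -1.25, and ABCG18 at -0.77 (-0.57 to -0.84 and not called without any 1 of fruit replicate 1, fruit replicate 2, seed replicate 1, seed replicate 2 and seed replicate 3). ABCG25 and ABCG20 were not called at -0.15 and 0.64. None of these transporters other than NPF4.1 exceeded 80 TPM in seed.

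ABA perception genes were mostly lower in seed, with 16 of 20 tested lower in seed and 2 higher. Both that were higher are receptors: PYL2 stood at 4.90, 2.82 and 1.97 TPM in fruit and 11.1, 13.6 and 16.7 TPM in seed, a difference of 1.85. PYL3 stood at 1.43, 0.490 and 0.606 TPM in fruit and 3.41, 4.31 and 5.02 TPM in seed, a difference of 1.53. PYL7 stood at 44.5, 105 and 136 TPM in fruit and 3.02, 5.37 and 7.01 TPM in seed, a difference of -3.89 ± 0.46 log2 units, adjusted p = 0.000429, and PYL9, PYR1, PYL8, PYL1, PYL6 and PYL5 were lower, at -2.05, -1.72, -1.64, -1.39, -1.12 and -1.09. PYL4 was not called at -0.19 (-0.40 and called without fruit replicate 3). PYL2 made up 1.17% ± 0.742 (0.750% without fruit replicate 1) of the summed receptor TPM in fruit and 14.6% ± 1.75 in seed, PYL7 30.8% ± 11.2 and 5.37% ± 1.71, at sums of 298 ± 49.5 and 93.9 ± 8.38 TPM. The phosphatases that the receptors inhibit were lower too. ABI1 stood at 145, 207 and 251 TPM in fruit and 26.8, 27.7 and 23.5 TPM in seed, a difference of -2.87. ABI2 stood at 113, 134 and 204 TPM in fruit and 11.3, 12.6 and 11.6 TPM in seed, a difference of -3.52. HAI2 stood at 94.2, 178 and 190.4 TPM in fruit and 1.94, 2.6 and 2.14 TPM in seed, a difference of -5.53. None of the 3 overlapped. HAB1 and HAB2 were lower, at -2.08 and -1.54, while HAI1 was not called at -0.25. The kinases SNRK2.2, SNRK2.3 and SNRK2.6 were lower, at -1.26, -1.65 and -1.60.

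**Figure D3:**
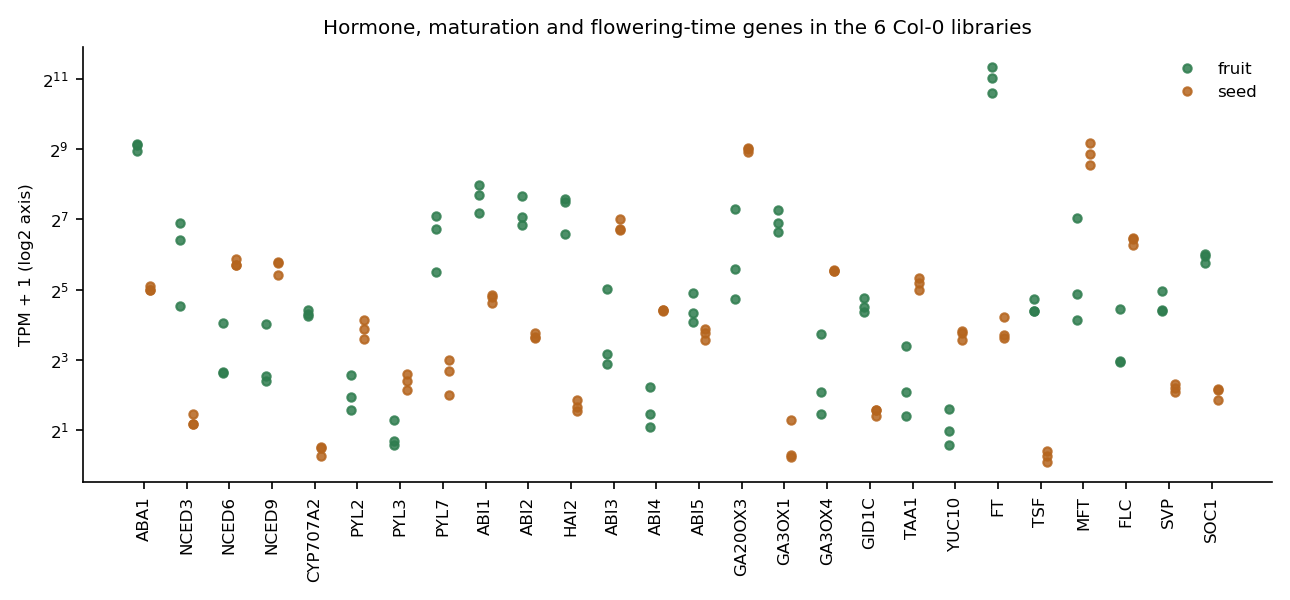
TPM + 1 (log2 axis) of hormone, maturation and flowering-time genes in the 3 fruit and 3 seed libraries of Col-0, 1 point a library. NCED3, the ABA phosphatases, GA3OX1, FT and SOC1 lie higher in fruit, and NCED6, NCED9, ABI3, GA20OX3, GA3OX4, MFT and FLC lie higher in seed.

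Gibberellin synthesis had the same feature, with 7 of 11 tested higher in seed and 4 lower. GA3OX1, which makes the active hormone, stood at 98.4, 153 and 119 TPM in fruit and 1.45, 0.215 and 0.181 TPM in seed, a difference of -6.33 ± 0.32 log2 units, adjusted p = 1.57e-05. GA3OX4 stood at 12.2, 1.75 and 3.28 TPM in fruit and 44.9, 45.1 and 46.5 TPM in seed, a difference of 3.11 ± 0.55 log2 units, adjusted p = 0.00198 (3.76 without fruit replicate 1). GA3OX1 gave 94.2% ± 6.05 of the summed GA3OX TPM in fruit and GA3OX4 84.6% ± 1.96 in seed. One step before, GA20OX3 stood at 156, 25.7 and 47.1 TPM in fruit and 526, 485 and 510.3 TPM in seed, a difference of 3.12 (3.83 without fruit replicate 1). GA20OX2 was lower in seed, at 63.7, 71.6 and 42.5 TPM in fruit and 14.6, 13.8 and 12.4 TPM in seed, a difference of -2.02. Early steps were higher in seed, with CPS, KS, KO and KAO1 at 1.61, 0.88, 1.33 and 2.32, and KAO2 lower at -1.0. GA3OX3 was higher by 2.08 and GA20OX1 lower at -0.59. Of the inactivating oxidases, GA2OX1 stood at 9.34, 16.4 and 13.3 TPM in fruit and 0.0420, 0 and 0 TPM in seed, a difference of -3.76, and GA2OX6 was lower at -1.45, while GA2OX2 and GA2OX4 were higher by 1.17 and 1.61. The receptor GID1C stood at 19.6, 21.6 and 25.9 TPM in fruit and 1.64, 1.98 and 2.0 TPM in seed, a difference of -3.02, and GID1B was lower at -1.31. Among DELLA proteins, RGA and RGL1 were lower, at -0.98 and -1.64 and RGL2 and RGL3 higher by 0.90 and 0.91. GAI and the receptor GID1A were not called, at 0.010 and 0.083. Auxin synthesis was higher in seed for 6 of 7 tested. TAA1 stood at 9.46, 1.64 and 3.28 TPM in fruit and 39.1, 35.8 and 30.9 TPM in seed, a difference of 2.88. The endosperm enzyme YUC10 stood at 2.06, 0.481 and 0.951 TPM in fruit and 12.5, 13.3 and 10.8 TPM in seed, a difference of 2.67. YUC4, YUC3, YUC1 and TAR2 were higher by 1.9, 1.87, 1.35 and 1.09. YUC6 was lower at -0.74 (-0.52 to -0.82 and not called without any 1 of fruit replicate 1, fruit replicate 2, seed replicate 1, seed replicate 2 and seed replicate 3).

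Secondary wall and xylem genes, which build lignified cells, were lower in seed for 20 of 21 tested, 16 by at least 2 units, where 36.9% and 11.4% of all genes tested were, with a median of -5.01, and -5.02 without fruit replicate 1. Their sum was 2386, 3089 and 2459.9 TPM in the fruit libraries and 209, 210.2 and 219 TPM in the seed libraries. All 3 cellulose synthases of secondary walls were on the fruit side. CESA4 stood at 351, 536 and 410.4 TPM in fruit and 0.365, 0.391 and 0.335 TPM in seed, a difference of -8.29. CESA7 stood at 272, 404 and 301 TPM in fruit and 5.31, 4.71 and 4.85 TPM in seed, a difference of -5.76. CESA8 stood at 155, 223 and 164 TPM in fruit and 1.40, 1.52 and 1.38 TPM in seed, a difference of -6.21. No library overlapped. LAC4, a laccase that polymerises lignin, stood at 451, 584 and 473 TPM in fruit and 0.837, 0.463 and 0.492 TPM in seed, a difference of -8.30 ± 0.14 log2 units, adjusted p = 1.06e-06, and LAC17 was lower at -6.67. The regulators of this programme NST3, MYB46, MYB83 and MYB103 were listed at 0 in all 3 seed libraries. In fruit, NST3 stood at 41.2, 56.5 and 61.3 TPM and MYB103 at 30.9, 40.1 and 24.8 TPM. MYB46 stood at 9.21, 14.2 and 10.2 TPM and MYB83 at 2.05, 2.0 and 2.39 TPM. IRX9, a xylan synthase, was the exception at 89.9, 64.3 and 57.0 TPM in fruit and 99.2, 126 and 107 TPM in seed, a difference of 0.67 ± 0.18 (0.57 and not called without seed replicate 2). Lignin monomer synthesis was lower in seed for 13 of 14, 12 by at least 2 units. PAL1, its entry enzyme, stood at 790.3, 1110.4 and 976 TPM in fruit and 90.3, 73.6 and 57.7 TPM in seed, a difference of -3.69, 4CL1 and CAD5 were lower, at -3.22 and -3.31, and CAD4 was higher by 0.69. The other PAL genes PAL4 and PAL2 were lower, at -3.27 and -1.36. Along the pathway, C4H, 4CL2, HCT, CYP98A3, CCoAOMT1, CCR1 and FAH1 were lower, with C4H at -2.72, FAH1 at -2.12, 4CL2 at -2.73, HCT at -2.40, CYP98A3 at -2.38, CCoAOMT1 at -2.29 and CCR1 at -2.48.

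Genes that pattern the pod and open it went both ways, with 10 of 19 tested higher in seed and 7 lower. Over all genes tested, 44.8% were higher and 36.9% lower. Dehiscence genes were fruit genes: ALC stood at 225, 282 and 344 TPM in fruit and 7.86, 5.61 and 5.71 TPM in seed, a difference of -5.26. The polygalacturonase ADPG1 stood at 59.5, 83.7 and 90.7 TPM in fruit and 0.756, 0.306 and 0.892 TPM in seed, a difference of -5.57. FUL differed at -7.84 ± 0.18 log2 units, adjusted p = 1.71e-06, and IND at -4.27. Replum factors RPL and BP were lower in seed at -2.58 and -1.90. Leaf polarity genes used in valve and cotyledon alike were higher in seed. FIL stood at 37.0, 14.2 and 15.8 TPM in fruit and 142, 105 and 112 TPM in seed, a difference of 2.48. YAB3 stood at 12.3, 3.03 and 4.17 TPM in fruit and 52.9, 43.2 and 48.2 TPM in seed, a difference of 2.91. JAG, which promotes lateral organ growth, was higher by 1.72. SHP1 and SHP2, near duplicates that act in valve margin and ovule, differed in level. SHP2 stood at 117, 77.3 and 78.1 TPM in fruit and 237, 258 and 266 TPM in seed, a difference of 1.5. SHP1 stood at 32.1, 36.3 and 40.5 TPM in fruit and 30.6, 32.9 and 34.0 TPM in seed, a difference of -0.15 (-0.23 and called without fruit replicate 1). SHP1 was not called. Of floral MADS-box genes, 8 of 12 were lower in seed. SEP4 stood at 81.7, 108 and 131 TPM in fruit and 0.227, 0.225 and 0.227 TPM in seed, a difference of -6.43, AG and SEP3 were lower, at -1.27 and -2.24, and AP1 was at 12.6, 19.6 and 13.1 TPM in fruit and listed at 0 in seed. AP3, known for petals and stamens, was higher in seed at 20.3, 5.27 and 8.91 TPM in fruit and 72.6, 73.1 and 83.6 TPM in seed, a difference of 2.82, and the ovule identity gene STK by 0.67. AGL13 and AGL18 were higher by 1.3 and 0.44, and PI, the partner of AP3, was lower at -2.06. SEP1, SEP2 and AGL6 were lower, at -1.77, -1.78 and -0.36.

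Photosynthesis genes were expressed strongly in both tissues. The nuclear list was lower in seed for 29 of 35 and by at least 2 units for 8, where 36.9% and 11.4% of all genes tested were, with a median of -0.99, and -0.99 without fruit replicate 1. Its sum was 63366, 50987 and 59730.2 TPM in the fruit libraries and 32751, 26633 and 30161 TPM in the seed libraries. Every fruit library lay above every seed library. Light-harvesting antenna proteins varied by member. LHCA1 stood at 2339, 2195 and 2599 TPM in fruit and 1359.6, 1089.9 and 1206 TPM in seed, a difference of -0.97. LHCB2.1 stood at 3035, 1898 and 2368 TPM in fruit and 524, 436 and 524 TPM in seed, a difference of -2.28. LHCB1.2 stood at 1341, 745 and 947 TPM in fruit and 2022, 1578 and 1732 TPM in seed. It was the only member called higher in seed, with a difference of 0.85 ± 0.26 (0.65 to 0.86 and not called without any 1 of fruit replicate 2, fruit replicate 3, seed replicate 1 and seed replicate 3). Rubisco activase, RCA, stood at 2838, 2956 and 2707 TPM in fruit and 192, 148 and 166 TPM in seed, a difference of -4.07 ± 0.14 log2 units, adjusted p = 3.99e-06. Small subunits of Rubisco differed most by member. RBCS1A stood at 6392, 6046 and 5203 TPM in fruit and 3401, 2742 and 3109 TPM in seed, a difference of -0.93 ± 0.35 (-0.85 to -1.02 and not called without any 1 of fruit replicate 2, fruit replicate 3, seed replicate 1, seed replicate 2 and seed replicate 3 and adjusted p = 0.145 with the replicate block). The linked genes RBCS1B, RBCS2B and RBCS3B were lower in seed at -6.52, -7.96 and -6.01. RBCS1A gave 70.6% ± 0.867 of the summed RBCS TPM in fruit and 99.1% ± 0.130 in seed, at sums of 8335 and 3113 TPM. Members of both families are near-identical in sequence, so their split is uncertain.

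The windows upstream of 2 of the linked small subunit genes, low in every seed library, follow, with GATAAG, the I-box of light-regulated genes, in capitals on either strand.
RBCS2B, chr5:15382072-15382321, minus strand: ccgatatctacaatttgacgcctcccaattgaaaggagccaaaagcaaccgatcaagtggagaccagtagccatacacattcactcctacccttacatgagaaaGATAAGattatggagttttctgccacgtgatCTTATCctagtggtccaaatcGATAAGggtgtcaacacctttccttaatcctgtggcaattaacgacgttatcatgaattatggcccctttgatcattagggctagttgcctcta
RBCS1B, chr5:15385321-15385570, minus strand: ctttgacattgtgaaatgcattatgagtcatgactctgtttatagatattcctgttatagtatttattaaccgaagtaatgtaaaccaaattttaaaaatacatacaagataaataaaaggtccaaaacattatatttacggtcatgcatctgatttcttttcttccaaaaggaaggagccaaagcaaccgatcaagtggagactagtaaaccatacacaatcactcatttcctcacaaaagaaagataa
RBCS2B held 3 matches, at 146, 115 and 94 bases before the start, and RBCS1B none. The RBCS1B window ends in gataa, and a match that runs past the window's edge is not counted. Bases that the 2 windows share lie nearer to the annotated start in RBCS1B, so the windows do not line up. The absence of a match there therefore does not show that RBCS1B lacks the element. The window of RBCS1B also holds 1 CATGCA, not in capitals, and that of RBCS2B none. GATAAG was upstream of 11 of 35 photosynthesis genes (31.4%), 12.4% of all genes tested, 15.8% of those lower in seed by at least 2 units and 11.5% of those higher by as much. ACGTG was upstream of 15 of 35 (42.9%) and CATGCA of 4 (11.4%).

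**Figure D4:**
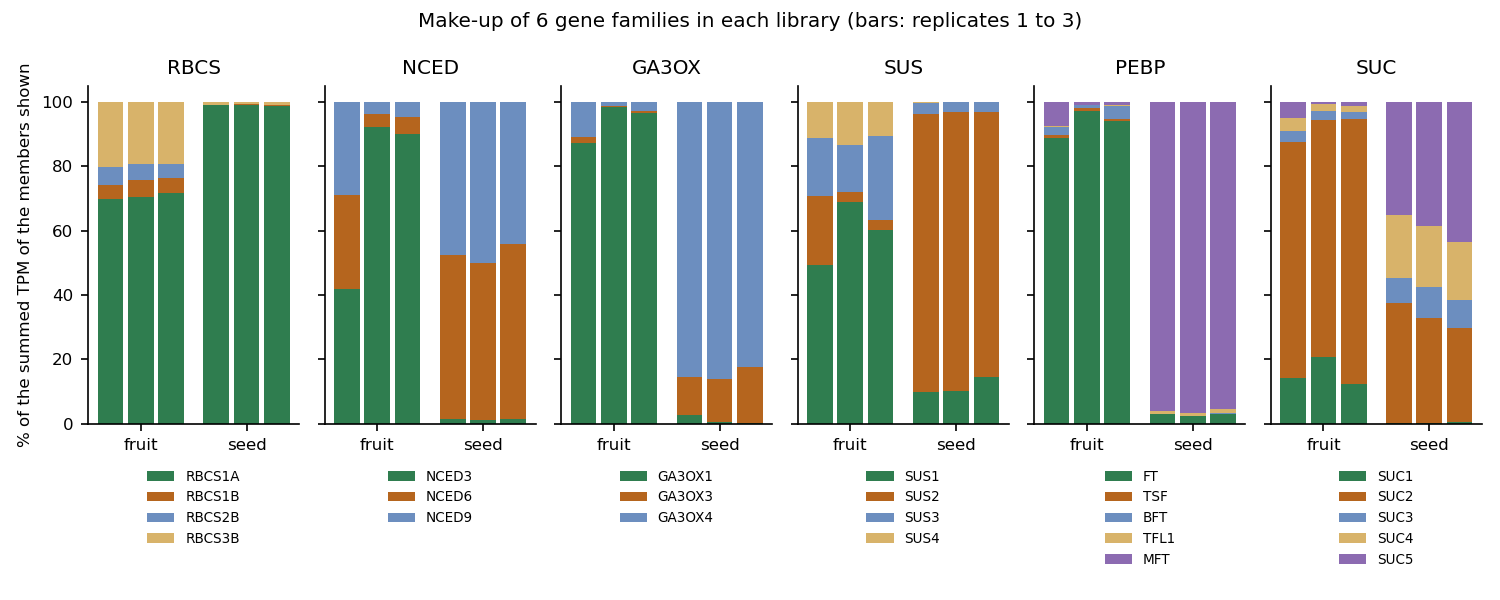
Share of the summed TPM of the members shown (%) in 6 gene families, 1 stacked bar for each fruit and seed library of Col-0. RBCS1A, NCED6 with NCED9, GA3OX4, SUS2, MFT and SUC5 take larger shares in every seed library than in any fruit library.

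Chlorophyll synthesis was lower in seed for 4 of 7 and higher for none. The greening factor GLK2 stood at 103, 93.4 and 95.7 TPM in fruit and 17.5, 15.4 and 14.8 TPM in seed, a difference of -2.54, while GLK1 was not called at 0.59 (0.85 and called without fruit replicate 1 and called at adjusted p = 0.00551 with the replicate block). CHLH and PORC were lower in seed at -1.05 and -1.09, and PORA at -2.19, with PORB and GUN4 not called at -0.22 (-0.40 and called without seed replicate 3) and -0.57 (-0.70 and called without fruit replicate 2 and called at adjusted p = 0.00923 with the replicate block). Chlorophyll breakdown was lower for 4 of 5, with PPH, NYC1, PAO and NYE1 at -2.13, -1.92, -1.71 and -1.50 and NOL higher at 0.50. Of 21 clock genes, 19 were lower in seed and none was called higher. Morning gene CCA1 stood at 69.9, 64.0 and 46.5 TPM in fruit and 9.89, 8.54 and 7.86 TPM in seed, a difference of -2.63. Evening gene ELF4 stood at 191, 283 and 300.4 TPM in fruit and 16.6, 22.3 and 19.0 TPM in seed, a difference of -3.66 ± 0.20. GI, PRR7 and TOC1 were lower, at -1.65, -1.12 and -0.95. RVE8 and PRR9 were lower, at -2.57 and -2.34.

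Glucosinolates, the sulphur defence compounds of this family, accumulate in seeds, but the genes that make them were fruit genes. All 11 tested were lower in seed by at least 2 units, with a median of -5.37, and -5.43 without fruit replicate 1. They summed to 2064, 3440.4 and 1958 TPM in the fruit libraries and 34.9, 19.0 and 21.6 TPM in the seed libraries, so the lowest fruit library lay far above the highest seed library. MYB28, their main aliphatic regulator, stood at 232, 380.1 and 251 TPM in fruit and 3.28, 1.27 and 0.695 TPM in seed, a difference of -6.79. CYP83A1 stood at 446, 677 and 365 TPM in fruit and 3.03, 0.743 and 0.691 TPM in seed, a difference of -7.72, MAM1 and BCAT4, which lengthen methionine, were lower, at -7.55 and -7.43, and CYP79F1 at -6.98. CYP79F2, SUR1 and FMO-GS-OX1, which act on the same chain, and CYP83B1 of the indole branch were lower, at -5.37, -3.65, -4.50 and -4.05. MYB29 and MYB51 were listed at 0 in seed. The importers GTR1 and GTR2, which load glucosinolates towards seed, were fruit-rich too. GTR1 stood at 57.5, 108 and 81.5 TPM in fruit and 35.1, 33.7 and 37.2 TPM in seed, a difference of -1.15. GTR2 stood at 91.4, 171 and 148 TPM in fruit and 9.55, 10.4 and 10.3 TPM in seed, a difference of -3.59. Myrosinases that cleave them were fruit-rich. TGG2 stood at 116, 24.9 and 12.6 TPM in fruit and 0.0559, 0.0554 and 0.0279 TPM in seed, a difference of -5.04 (-4.16 without fruit replicate 1 and -5.72 without fruit replicate 3). TGG1 stood at 52.8, 21.4 and 13.5 TPM in fruit and 6.81, 7.58 and 2.79 TPM in seed, a difference of -2.04. Fruit replicate 1 was the highest library for both. The specifier protein NSP1 and the specifier modifier ESM1 were higher in seed by 2.57 and 1.95, and the specifier ESP was listed at 0 there.

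All 11 salicylic acid and defence genes tested were lower in seed. PR1, PR2 and PR5, the classical pathogenesis markers, were listed at 0 in seed. PR5 stood at 59.2, 47.8 and 36.4 TPM in fruit, PR2 at 34.4, 20.8 and 15.6 TPM and PR1 at 4.96, 1.34 and 2.81 TPM. WRKY70 stood at 13.4, 26.8 and 14.5 TPM in fruit and 0.225, 0.371 and 0.112 TPM in seed, a difference of -3.90, and EDS1 and NPR1 were lower, at -2.69 and -1.0. The salicylic acid genes ICS1, EDS5 and CBP60G were lower, at -0.71, -1.24 and -2.01, and PAD4 and NIMIN1 at -1.46 and -1.83. Senescence genes were lower for 12 of 12, 9 by at least 2 units. The protease SAG12 stood at 206, 456 and 270.5 TPM in fruit and 2.40, 2.3 and 2.02 TPM in seed, a difference of -6.51. SAG13 stood at 162, 321 and 215 TPM in fruit and 0.0403, 0.0399 and 0.0402 TPM in seed, a difference of -7.76. The NAC factor NAP stood at 12.9, 35.3 and 54.7 TPM in fruit and 0.528, 0.697 and 0.747 TPM in seed, a difference of -4.20. The groups did not overlap. WRKY53, an early senescence factor, stood at 6.30, 69.9 and 73.1 TPM in fruit and 3.53, 2.99 and 4.32 TPM in seed, a difference of -2.88 (-3.98 without fruit replicate 1 and -2.31 to -2.99 and not called without any 1 of fruit replicate 2, fruit replicate 3, seed replicate 1, seed replicate 2 and seed replicate 3). Its level in fruit replicate 1 was close to seed. The NAC factors ORS1, ATAF1 and NAC092 (ORE1) were lower, at -4.50, -2.76 and -1.43, and WRKY6 and WRKY75 at -3.27 and -1.41. SAG21, SEN1 and SAG101 were lower, at -4.52, -2.18 and -0.67 (-0.53 to -0.72 and not called without any 1 of fruit replicate 2, fruit replicate 3, seed replicate 1 and seed replicate 2). Of 10 jasmonate genes, 6 were lower and 2 higher. LOX2, the plastid lipoxygenase, stood at 82.9, 209 and 103 TPM in fruit and 0.0847, 0.0839 and 0.0338 TPM in seed, a difference of -6.84. OPR3 and VSP2 were lower, at -2.53 and -3.91, MYC2 at -2.28 (-1.67 without fruit replicate 2), and JAR1 and JAZ10 higher by 0.71 and 1.84. The receptor COI1 and the jasmonate-induced CORI3 were lower, at -1.14 and -1.49, and AOS and JAZ1 were not called at -0.15 and -0.028. Cold-response genes were lower in seed for 10 of 13, and both tissues came from plants kept at the same temperatures. KIN2 stood at 503, 529 and 752 TPM in fruit and 1.32, 1.38 and 1.39 TPM in seed, a difference of -7.95 ± 0.16 log2 units, adjusted p = 1.34e-06. COR15A stood at 82.9, 43.7 and 61.2 TPM in fruit and 0.730, 0.551 and 0.555 TPM in seed, a difference of -5.26. RD29A stood at 463, 529.6 and 499.8 TPM in fruit and 5.11, 7.05 and 8.49 TPM in seed, a difference of -6.0. ICE1, the upstream bHLH factor that also acts in the endosperm with ZOU, was the only one higher in seed, at 105, 33.7 and 48.1 TPM in fruit and 331, 340.1 and 326 TPM in seed, a difference of 2.56. CBF3 was lower at -2.78 and CBF1 not called at -0.51. CBF2 was not called at 0.022. The protective proteins KIN1, COR15B, COR47 and ERD10 were lower, at -6.96, -4.30, -2.61 and -1.48, and RD29B and COR413IM1 at -1.52 and -0.99.

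Flowering-time genes were lower in seed for 10 of 16 tested and higher for 6. FT, the mobile flowering signal, stood at 1559, 2099 and 2604 TPM in fruit and 17.6, 11.4 and 12.1 TPM in seed, a difference of -7.15 ± 0.23 log2 units, adjusted p = 3.51e-06. Its relative TSF stood at 20.2, 25.7 and 19.9 TPM in fruit and 0.339, 0.201 and 0.0676 TPM in seed, a difference of -4.25. BFT, a PEBP protein that opposes FT, was lower at -5.19 (-5.79 without fruit replicate 2 and -4.54 without fruit replicate 3). FT, TSF and BFT were summed with TFL1 and with MFT, which differed in the other direction as described above. FT gave 93.3% ± 4.25 of the summed TPM of these PEBP genes in fruit and MFT 96.1% ± 0.565 in seed. FLC, the repressor that vernalization silences and embryos reactivate, stood at 20.9, 6.86 and 6.70 TPM in fruit and 88.5, 86.6 and 77.0 TPM in seed, a difference of 2.95 ± 0.41 log2 units, adjusted p = 0.000756. Fruit replicate 1 was the highest fruit library, and no fruit library reached seed. SOC1 stood at 53.6, 61.3 and 63.4 TPM in fruit and 3.55, 2.6 and 3.40 TPM in seed, a difference of -3.86. SVP stood at 20.6, 29.9 and 20.1 TPM in fruit and 3.97, 3.29 and 3.62 TPM in seed, a difference of -2.39. AGL42 stood at 33.8, 43.2 and 57.1 TPM in fruit and 0.103, 0.0681 and 0.0343 TPM in seed, a difference of -5.39. Most FLC relatives did not share its direction. MAF5, FLM and MAF3 were lower, at -1.89, -0.71 and -0.41, and MAF2 was higher by 0.52. MAF4 was lower at -0.44 (-0.31 to -0.44 and not called without any 1 of fruit replicate 2, fruit replicate 3, seed replicate 2 and seed replicate 3 and adjusted p = 0.0860 with the replicate block). CO, FD and TFL1 were near the level tested and higher in seed by 0.94, 0.90 and 1.08 (1.0 and not called without seed replicate 1 and 1.08 and not called without seed replicate 3).

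Sugar transport and cleavage supply the seed from the veins. Of 21 such genes, 13 were lower in seed and 8 higher. Phloem loader SUC2 stood at 515, 592 and 738 TPM in fruit and 129, 98.4 and 97.4 TPM in seed, a difference of -2.49. The endosperm carrier SUC5 stood at 35.2, 5.06 and 11.7 TPM in fruit and 122, 117 and 146 TPM in seed, a difference of 3.19 (3.87 without fruit replicate 1 and 2.58 without fruit replicate 2). SUC5 gave 2.31% ± 2.36 (0.968% without fruit replicate 1) of the summed SUC TPM in fruit and 39.0% ± 4.22 in seed. SWEET11 stood at 545, 588 and 509 TPM in fruit and 281, 267 and 268 TPM in seed, a difference of -1.0. SWEET15 stood at 66.6, 17.8 and 19.9 TPM in fruit and 202, 227 and 171 TPM in seed, a difference of 2.74 (3.33 without fruit replicate 1). SWEET4 stood at 87.6, 119 and 116 TPM in fruit and 3.51, 1.5 and 1.69 TPM in seed, a difference of -5.11. Summed SWEET TPM were alike, 1061 ± 72.7 in fruit and 1110 ± 57.8 in seed, while SWEET10 gave 2.69% ± 2.79 (1.08% without fruit replicate 1) of it in fruit and 23.1% ± 0.782 in seed. Sucrose synthases differed by member too. SUS1 stood at 127, 177 and 164 TPM in fruit and 24.4, 26.4 and 29.8 TPM in seed, a difference of -2.48. Of the summed TPM of SUS1, SUS2, SUS3 and SUS4, SUS2 gave 9.30% ± 10.5 (3.22% without fruit replicate 1) in fruit and 85.2% ± 2.49 in seed. STP13 and SUC1 were lower, at -5.33 and -5.93, and the cell wall invertases CWINV1 and CWINV4 higher by 1.39 and 1.74. SWEET5 was higher by 3.09 (3.73 without fruit replicate 1) and SUS4 lower at -4.66.

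Amino acid transport and nitrogen genes were lower in seed for 12 of 19. AAP2, which moves amino acids between xylem and phloem, stood at 1607, 2136 and 2380.3 TPM in fruit and 11.8, 7.11 and 7.82 TPM in seed, a difference of -7.70 ± 0.22 log2 units, adjusted p = 2.53e-06. The glutamine synthetase GLN1;1 stood at 1309, 2215 and 1519 TPM in fruit and 49.9, 59.0 and 51.8 TPM in seed, a difference of -4.91. AAP4, AAP6 and UMAMIT11 were lower, at -5.85, -5.02 and -3.35. UMAMIT24 and UMAMIT25, exporters of the seed, were higher there. UMAMIT24 stood at 11.6, 1.47 and 2.1 TPM in fruit and 43.8, 40.8 and 35.3 TPM in seed, a difference of 3.15 (3.88 without fruit replicate 1). UMAMIT25 stood at 75.4, 19.4 and 19.4 TPM in fruit and 259, 311 and 231 TPM in seed, a difference of 3.07 (3.71 without fruit replicate 1). The asparagine synthetase ASN2 was higher by 2.39. UMAMIT14 was higher by 0.80. Phloem and vascular genes were lower in seed for 8 of 9, with PP2-A1 at 228, 331 and 379 TPM in fruit and 2.26, 1.66 and 1.60 TPM in seed, a difference of -6.76, and APL lower at -4.20, and SEOR1 listed at 0 in seed. All 5 pollen genes tested were also lower in seed. Besides VGD1 these were BCP1, PPME1, ACA9 and MGH3, at -3.40, -2.49, -1.92 and -0.98. Of the vascular genes on that list, PXY, a receptor of the cambium, was higher by 0.50 (0.32 to 0.56 and not called without any 1 of fruit replicate 3, seed replicate 1, seed replicate 2 and seed replicate 3). FTIP1, which helps export FT, was lower at -2.98, and WOX4, HB8 and TMO5 at -1.16, -0.83 and -0.86 (-0.66 to -0.93 and not called without any 1 of fruit replicate 2, fruit replicate 3, seed replicate 1, seed replicate 2 and seed replicate 3 and adjusted p = 0.0539 with the replicate block). Of 12 guard cell genes, 7 were lower in seed and 4 higher. FAMA, a factor of guard cell differentiation, and the ion channels KAT1 and SLAC1 were lower, at -3.76, -5.09 and -3.27, and SPCH, which starts the stomatal lineage, the receptor TMM and the peptide EPF2 higher by 2.26, 2.46 and 2.0. STOMAGEN, a peptide that promotes stomata, was higher by 1.80. KAT2, HT1, FLP and EPF1 were lower, at -1.68, -1.37, -1.05 and -0.70 (-0.61 and not called without seed replicate 3), and MYB60 was not called at 0.12.

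Genes were also grouped by annotated product. In translation, 289 of 321 ribosomal protein genes tested were higher in seed and 16 lower, with a median of 1.55 and sums of 24867 ± 5524 TPM in fruit and 71648 ± 3584 TPM in seed (SD, n = 3). Histones were higher for 38 of 52, with a median of 1.49. Pentatricopeptide proteins, which process organelle RNA, were higher for 132 of 214 but by little, at a median of 0.39. Defensins were higher for 20 of 23, 12 by at least 2 units. WRKY and NAC factors went the other way, with 32 of 42 and 43 of 72 lower, and cytochromes P450 were lower for 79 of 137. Of mitochondrion-encoded genes, 29 of 47 tested were higher and 5 lower. ATMG00510, ATMG00080, ATMG00090 and ATMG00210 were higher by 1.81, 1.77, 1.71 and 1.44, and ATMG00980, ATMG00990, ATMG01000 and ATMG00590 lower at -2.02, -2.0, -0.91 and -0.72 (-0.63 and not called without fruit replicate 3 and -0.70 and not called without seed replicate 1). Of plastid-encoded genes, 32 of 84 were higher and 16 lower, and 49 and 15 without fruit replicate 1. Over all genes tested, 44.8% were higher and 36.9% lower. Plastid-encoded genes took only 0.0633% to 0.111% of the listed TPM of a library. Their sum did not follow the counts, at 853 ± 228 TPM in fruit and 768 ± 126 TPM in seed (SD, n = 3). ATCG00790, ATCG00760, ATCG00770 and ATCG00750 were higher by 2.48, 2.37, 2.21 and 2.14. ATCG00020, ATCG01020, ATCG00220 and ATCG00630 were lower, at -1.92, -1.64 (-1.35 and not called without seed replicate 3), -1.53 and -1.44.

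Genes often used as internal references were not level. ACT2 stood at 146, 184 and 191 TPM in fruit and 68.8, 62.8 and 68.4 TPM in seed. UBQ10 stood at 2329, 2232 and 1996 TPM in fruit and 1038, 999 and 962 TPM in seed. PP2AA3 stood at 33.6, 33.3 and 28.6 TPM in fruit and 43.2, 41.9 and 43.7 TPM in seed. The first pair were lower in seed at -1.36 and -1.12, and PP2AA3 higher by 0.42. GAPC1 and EF1A (AT5G60390) were higher by 1.03 and 1.47. MON1 was higher by 0.64 and UBC9 lower at -0.66, while the TIP41-like gene AT4G34270 was not called at 0.065, with 43.1, 46.4 and 48.7 TPM in fruit and 46.2, 48.5 and 49.98 TPM in seed.

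**Figure D5:**
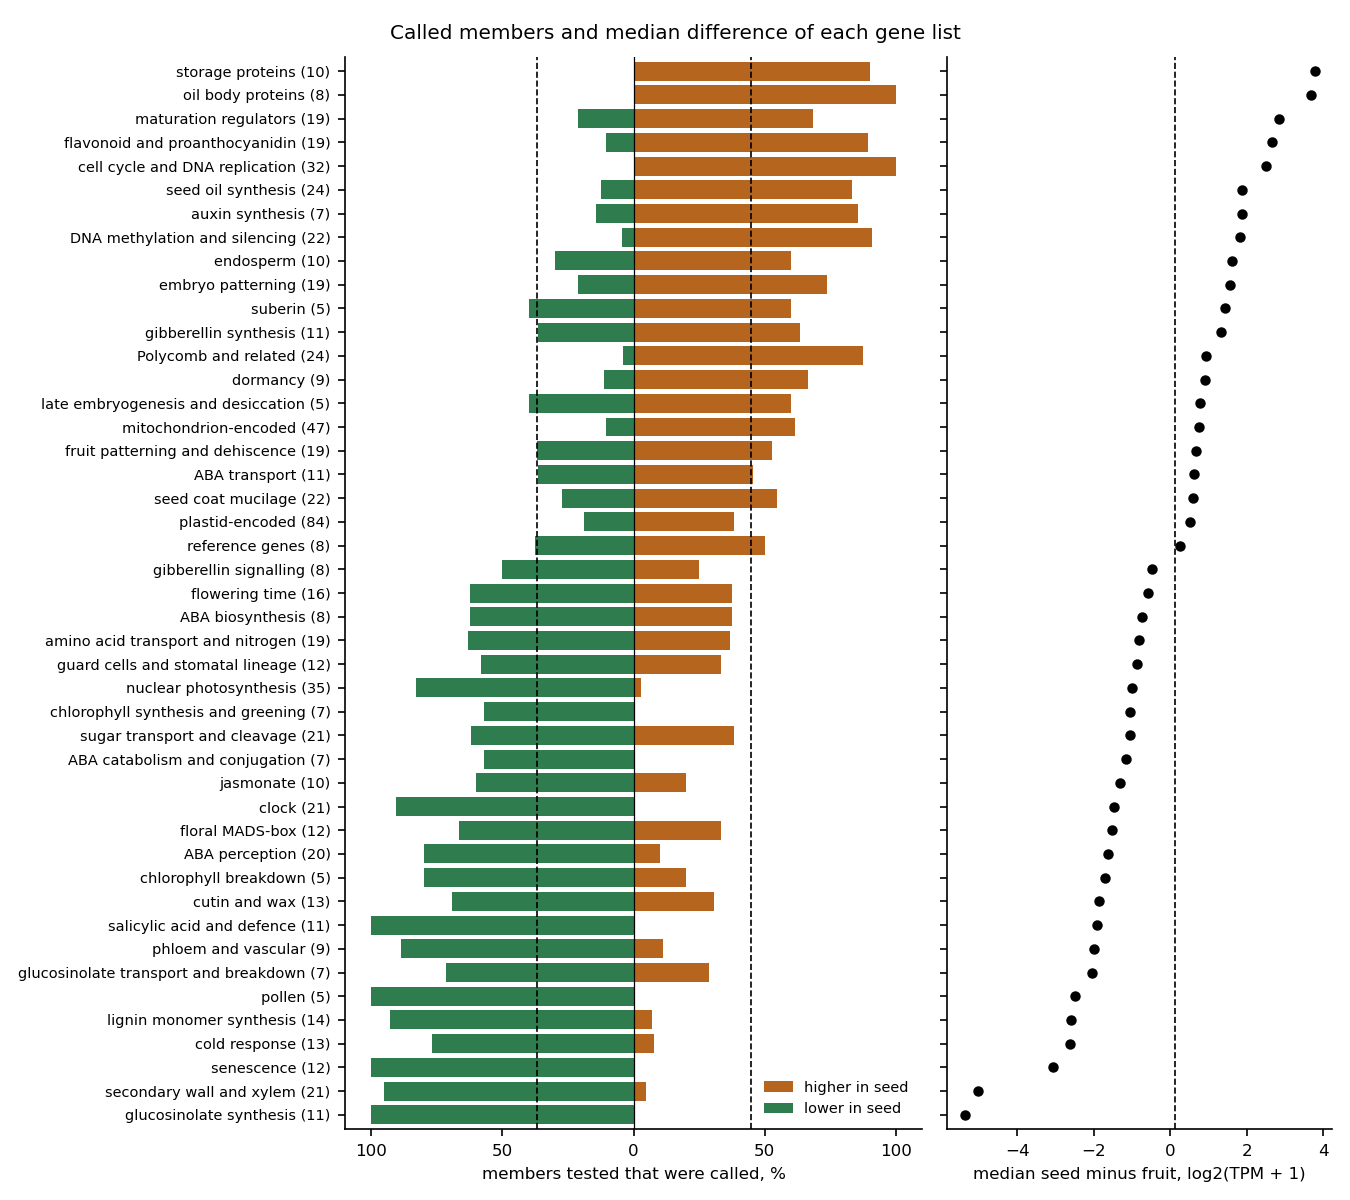
Share of tested members (%) of each gene list with at least 5 members tested, called higher (orange) or lower (green) in seed, with the number tested in brackets, and the list's median difference in log2(TPM + 1). Dashed lines give the same over all genes tested (44.8% higher, 36.9% lower, median 0.12), and lists run from storage proteins (3.77) to glucosinolate synthesis (-5.37).

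The tissue difference of Col-0 was compared with that of lhp1-6, in which LHP1 is mutated, with which it shares no library. Of the 15925 genes called in Col-0, 14031 (88.1%) were called in lhp1-6 in the same direction, 82 in the opposite direction and 1812 were not called. Across the 19498 genes the 2 differences had a Pearson correlation of 0.964, a description over genes that share libraries. The limma interaction, which tests the difference between the 2 contrasts itself, called 1008 genes (5.17%), 689 with a higher seed minus fruit value in Col-0 and 319 with a lower one. That count depended on the libraries. It was 4013 without fruit Col-0 replicate 1, 371 to 1202 when any other library was left out, 452 with the replicate block and 2975 with the seed shares taken off. Fruit replicate 1 of Col-0 had the highest estimated seed share of any fruit library, 23.4% against 8.31% to 11.3% in lhp1-6. Fruit replicates 2 and 3 of Col-0, at 3.69% and 5.77%, lay below every lhp1-6 fruit library. All of these are upper estimates. With or without fruit replicate 1, genotype and the seed RNA in fruit cannot be told apart in these counts. None of the 4 core maturation factors, FUS3, LEC1, LEC2 and ABI3, was called, with values of 0.16, 0.36, 0.62 and 0.091, Col-0 minus lhp1-6. These 4 values are given for the fit with all 12 libraries only. Without fruit replicate 1, the Col-0 median of the maturation regulators rose from 2.83 to 3.15. The missing calls therefore do not show that the 2 genotypes were alike for these factors. NCED3 and LHP1 were called, at -3.14 and 0.76, and both calls were lost with the replicate block (adjusted p = 0.0619 and 0.0546).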

How the data were processed

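RNA of hand-dissected fruit and seed was extracted with a column kit and sequenced as 100 base pairs from both ends, per the labels' protocols. Per the submitters' processing notes, the authors used cutadapt 1.9.1, STAR 2.5, featureCounts with no version given and the TAIR10 genome. The authors deposited TPM, 1 table a library with 26925 genes. TPM keep no depth, and whether strand was used in counting is also not given in the sources used here. Genes that overlap on opposite strands are therefore uncertain, as are near-identical ones (RBCS, LHCB1, SESA, CRU, MAF, TGG). The 45 gene lists hold 680 genes.

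From these values, log2(TPM + 1) was fitted with limma 3.58.1 in R 4.3.3 (variances moderated along the mean, no block, two-sided, Benjamini-Hochberg adjustment over the 19498 genes that reached 1 TPM in 3 or more of 6 libraries, threshold 0.05). The interaction used all 12 libraries. The procedure was tested on simulated data. The deviations from the tissue means correlated between the fruit and seed library of 1 number in all 3 pairs (0.196, 0.113 and 0.193), so the fit with the replicate number as a block was kept beside the main one. The alternatives were another pseudocount, filter, scaling, weighting, variance model or set of libraries, the block, subtraction of an estimated seed share (that share times the mean seed level, rescaled) from fruit and each library left out. The fit with both block and rescaling and every alternative of the interaction were chosen after seeing the data. Names and windows came from RefSeq TAIR10.1, which matched 26715 identifiers.

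The comparison and the lists were chosen with earlier results of these data known. Genes were named by a rule: the 15 largest differences in each direction among called genes with no overlap and at least 10 TPM in the higher tissue, up to 4 called members per direction of each list, every member of lists of up to 14 genes, and all maturation regulators, endosperm and ABA genes with DOG1, MFT, FT, TSF, FLC and LHP1. Members below the level tested are mostly given as counts, and 1 gene that the rule names is not reported here. Of the 470 genes named, 56 fall outside it and were chosen after their values were seen. These include WRI1, CHS, MET1, SOC1, RBCS1A and most of the FLC relatives.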

Additional observations from a re-analysis of the deposited data

Results flagged for a closer look

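Of the 470 genes named, 50 had a seed minus fruit difference that differed between Col-0 and lhp1-6 by the limma interaction with Benjamini-Hochberg adjustment over 19498 genes, 5.17% of which were called. Values are in log2(TPM + 1), Col-0 minus lhp1-6, so a negative value is a difference further towards fruit in Col-0. All 50 kept their sign when each of the 12 libraries was left out in turn. They were also called without fruit replicate 1 of Col-0 and with the seed shares taken off. These genes were picked by a call on the same libraries, so a kept sign was largely built in. Calls over all genes rose from 1008 to 4013 without fruit replicate 1 of Col-0 and to 2975 with the seed shares taken off. Calls under those settings are therefore not a separate test of the 50 genes. Of the 50, 26 were called in every leave-out and 27 with the replicate block. The call was lost with the block, at adjusted p = 0.0546 to 0.116, for FUL, AT2G45220, STM, PIN7, SWN, LHP1, MAH1, LEA4-5, PIF1, NCED3, ABA1, ABCG31, DTX50, PYL3, SHP2, AG, AP1, TGG2, PAD4, NIMIN1, NAC092, AGL42 and SWEET11. No group had more than 3 libraries, so single libraries were not screened for outliers.

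Of the floral and flowering-time genes, SEP4 stood at -6.43 in Col-0 and -4.42 in lhp1-6, a difference of -2.01 with adjusted p = 0.000996. SEP3 stood at -2.24 in Col-0 and -3.82 in lhp1-6, a difference of 1.58 with adjusted p = 0.000965. Both were called in every leave-out and with the block. The MADS-box genes SHP1, SHP2, AG, SEP1, AP1 and FUL had values of 0.97, 1.02, 0.79, 0.62, -1.15 and -1.03. The flowering genes SOC1, AGL42, TSF and VIN3 had values of -1.32, -1.13, -2.15 and 1.36. For TSF, the level in Col-0 differed by -4.25 and in lhp1-6 by -2.10. AP1 was listed at 0 in every Col-0 seed library.

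Wax genes went both ways. WSD1 stood at -5.17 in Col-0 and -2.45 in lhp1-6, a difference of -2.72 with adjusted p = 0.000965, and CER1 at -6.82 in Col-0 and -4.96 in lhp1-6, a difference of -1.86 with adjusted p = 0.00122. MAH1 and CER5 had values of -1.66 and 1.26, and MAH1 was listed at 0 in Col-0 seed. The seed coat NAC gene NARS1 had a value of 1.52. The meristem and patterning genes STM, PIN7, IKU2 and SPT had values of -1.41, -0.83, 1.36 and 1.08, and IKU2 was listed at 0 in Col-0 seed. The Polycomb genes LHP1 and SWN had values of 0.76 and 0.57. LHP1 itself stood at 0.36 in Col-0 and -0.40 in lhp1-6, the mutant in this gene.

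Of the ABA genes, NCED3 stood at -4.68 in Col-0 and -1.54 in lhp1-6, a difference of -3.14 with adjusted p = 0.0263. It was called in 5 of 12 leave-outs. The synthesis and breakdown genes ABA1 and CYP707A2 had values of -0.52 and -1.34. The transporters ABCG31, ABCG22 and DTX50 had values of -0.84, 0.79 and 1.23. The perception and signalling genes PYL3, PYL8 and SNRK2.6 had values of 1.46, 0.72 and 0.61. The late embryogenesis gene LEA4-5 and the light-signalling factor PIF1 had values of -2.70 and -1.11, and both genes had opposite signs in the 2 genotypes. The gibberellin genes KAO2 and GA2OX1 had values of 0.53 and -1.41.

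Ageing and defence genes included NAP at -4.20 in Col-0 and -1.04 in lhp1-6, a difference of -3.16 with adjusted p = 0.0152. The other NAC genes ATAF1 and NAC092 had values of -1.68 and -0.90. The defence genes PAD4, NIMIN1, MYB29 and TGG2 had values of -0.80, -1.01, 3.30 and 3.72, with MYB29 listed at 0 in Col-0 seed. The lignin and dehiscence genes PAL4 and ADPG1 had values of -1.87 and 1.75. The nutrient carriers SWEET11 and UMAMIT14 had values of 0.72 and 1.62. Among the largest fruit genes, AT2G47880, PIFI and AT2G45220 had values of -2.37, -1.19 and -1.33, with AT2G47880 listed at 0 in Col-0 seed.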

How the results depend on the processing

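The counts of genes higher and lower in seed stayed within 1.5 times of 8738 and 7187 under every alternative, between 7428 and 9575 higher and between 6153 and 8115 lower. The fewest higher came from the block with median-of-ratios rescaling and the most from no filter, the fewest lower from the filter at 5 TPM and the most from median-of-ratios rescaling. Leaving out 1 library gave 8051 to 8875 higher, 6630 to 7501 lower and 3347 to 4596 with a difference of at least 2 units, of 3859. That last count was 2001 at a pseudocount of 5 and 5371 at 0.1. Median-of-ratios rescaling turned the split from 54.9% to 48.8% higher among called genes. The replicate block gave 8383 higher and 7012 lower, ended the calls of ABI5, RBCS1A, MAF4 and TMO5, made those of GLK1 and GUN4 and changed no other call among the genes named. The genotype count of 1008 was 452 with the replicate block, 2975 with the seed shares taken off and 371 to 4013 when 1 library was left out. The medians of 2 lists changed sign, gibberellin catabolism to 0.078 at a pseudocount of 5 and 0.11 with quantile normalisation, and fruit patterning to -0.15 with the 5 TPM filter. The cause of these changes was not tested.

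Of the 470 genes named, 49 changed a call or sign under at least 1 alternative, and every gene that changed sign had not been called. Other scaling also ended calls of the limma test. With median-of-ratios rescaling, LHP1, LHCB1.2 and PXY were not called (adjusted p = 0.0505 to 0.114), and bZIP10, ABCG25, SHP1 and GUN4 were. Quantile normalisation ended the calls of AGL62, DTX50, ABCG18, GA20OX1, GA2OX6, SAG101, MAF4, MGH3, PXY, WOX4, TMO5, EPF1, ATMG01000 and ATMG00590. Their adjusted p was 0.0503 to 0.392. It made calls of CRU3, BGLU18 and ABCG20. With quantile normalisation, the sign changed for bZIP10 at 0.11, AGL80 at -0.018, GAI at -0.011 and JAZ1 at 0.069. Without storage and organelle genes, the sign changed for bZIP10 at 0.020. With array weights, the sign changed for bZIP10 at 0.0036, GAI at -0.00072 and CBF2 at -0.12. With median-of-ratios rescaling, with or without the replicate block, the sign changed for AGL80 at -0.14, GAI at -0.14, GID1A at -0.077, CBF2 at -0.087, MYB60 at -0.014 and AT4G34270 at -0.10. With the seed shares taken off, the sign changed for JAZ1 at 0.068. At a pseudocount of 5, the sign changed for CBF2 at -0.011. Leaving out 1 library took bZIP10 from -0.022 to 0.0063, AGL80 from -0.059 to 0.053, CYP707A3 from -0.24 to 0.76, PYL4 from -0.40 to 0.019, HAI1 from -0.43 to 0.10, GAI from -0.029 to 0.056, AOS from -0.35 to 0.19, JAZ1 from -0.39 to 0.36, CBF1 from -1.10 to 0.30, CBF2 from -0.35 to 0.58 and MYB60 from -0.24 to 0.36. TPM keep no depth, so counting error could not be given, and genes near 0 carry the pseudocount's share of their difference.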
